A study of Mus musculus with 20 samples.

Results

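The genes described here are 30 genes of the G2/M transition and mitosis, taken by name: cyclins and the control of CDK1, mitotic kinases, the spindle checkpoint and the anaphase-promoting complex (APC/C), kinetochore and centromere proteins, spindle motors and microtubule proteins, and chromosome structure. Each gene was read from 1 probe set, the one of highest average signal across the arrays among those annotated with its symbol alone. Such a probe set was available for 29 of the 30, of 17097 genes in all, and all 29 were among the 12944 genes tested. Ccnb1, the gene of cyclin B1, had none under its symbol alone and was not analysed here beyond its promoter.

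RNA came from mouse embryonic fibroblasts that carry an Ampkα1/α2 double knockout and were SV40-immortalized, grown at low density. AMP-activated protein kinase (AMPK) is the energy-sensing kinase whose catalytic subunits these 2 genes encode, so every group, the control included, lacks it. The 7 groups are untreated cells at 0 h and cells kept in AICAR at 1 mM for 1, 2, 4, 8, 12 or 24 h. The group at 8 h has 2 arrays and every other group has 3. AICAR is an adenosine analog that cells convert to an AMP mimic and that is widely used to activate AMPK. The labels give neither the number of cell clones nor whether the arrays of a group came from separate cultures, so each p-value speaks of array-to-array spread that may be purely technical. Immortalization with SV40 usually rests on its large T antigen, which binds the retinoblastoma family of repressors. The only untreated samples are those at 0 h, so the length of AICAR exposure and the time in culture cannot be told apart.

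Entry into mitosis is driven by CDK1 bound to a B-type cyclin. WEE1 keeps this kinase inhibited, CDC25 phosphatases release it, and Aurora and Polo-like kinases take the cell on through spindle assembly. The spindle checkpoint (BUB1, BUBR1 and TTK among others) holds back CDC20, the activator of the APC/C, until the chromosomes are attached, and the APC/C then marks cyclins and securin for destruction. The genes of this programme are silent in quiescent cells and peak together late in the cell cycle. Their promoters are known for the cell cycle genes homology region (CHR), read by the DREAM and MuvB complexes with B-MYB and FOXM1, and for CCAAT boxes bound by NF-Y.

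The promoters of 6 genes called in the comparison of 24 h with 4 h are shown. Aurka, Plk1, Cdc20 and Kif23 were lower at 24 h, and Ccnb2 and Bub1 were higher. They were not chosen by size of change alone: Cenpe (-0.75) fell more than Plk1 (-0.65) and Cdc20 (-0.63) and is not shown. Each runs 5′ to 3′ on the gene's own strand, from 250 bases before to 50 bases after the annotated start, from RefSeq on GRCm38.p6. Capitals mark the CHR letters TTTGAA and TTTAAA and the CCAAT box, on either strand.
Aurka, chr2:172370521-172370820 (minus strand): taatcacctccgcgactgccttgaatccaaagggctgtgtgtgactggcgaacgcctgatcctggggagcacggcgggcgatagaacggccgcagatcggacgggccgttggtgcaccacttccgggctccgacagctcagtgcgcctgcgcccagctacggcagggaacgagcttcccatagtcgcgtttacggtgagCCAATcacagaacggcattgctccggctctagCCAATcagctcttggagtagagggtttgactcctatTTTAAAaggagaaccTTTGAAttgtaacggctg
Plk1, chr7:122159185-122159484 (plus strand): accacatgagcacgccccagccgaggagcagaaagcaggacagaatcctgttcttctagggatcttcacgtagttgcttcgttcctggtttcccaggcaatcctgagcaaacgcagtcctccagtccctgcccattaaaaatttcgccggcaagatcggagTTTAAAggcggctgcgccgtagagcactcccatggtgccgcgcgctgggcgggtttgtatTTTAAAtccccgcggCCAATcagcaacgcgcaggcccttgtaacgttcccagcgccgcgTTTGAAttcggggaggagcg
Cdc20, chr4:118437294-118437593 (minus strand): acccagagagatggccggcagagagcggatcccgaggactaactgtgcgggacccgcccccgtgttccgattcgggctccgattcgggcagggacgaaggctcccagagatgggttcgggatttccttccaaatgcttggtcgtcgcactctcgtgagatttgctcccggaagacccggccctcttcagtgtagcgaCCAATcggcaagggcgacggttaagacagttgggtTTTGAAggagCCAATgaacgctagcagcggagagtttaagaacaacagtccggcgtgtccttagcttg
Kif23, chr9:61946750-61947049 (minus strand): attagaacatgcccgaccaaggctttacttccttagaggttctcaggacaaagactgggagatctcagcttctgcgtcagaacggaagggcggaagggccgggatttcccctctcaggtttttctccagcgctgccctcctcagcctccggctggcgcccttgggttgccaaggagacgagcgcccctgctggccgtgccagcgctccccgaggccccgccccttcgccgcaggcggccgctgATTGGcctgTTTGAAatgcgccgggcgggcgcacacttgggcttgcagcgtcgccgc
Ccnb2, chr9:70421505-70421804 (minus strand): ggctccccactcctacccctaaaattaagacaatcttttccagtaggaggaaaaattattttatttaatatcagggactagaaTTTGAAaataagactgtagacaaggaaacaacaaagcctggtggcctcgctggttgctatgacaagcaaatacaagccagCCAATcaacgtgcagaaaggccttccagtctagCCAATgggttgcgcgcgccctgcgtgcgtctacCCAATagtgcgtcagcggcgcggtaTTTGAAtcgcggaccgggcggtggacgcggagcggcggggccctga
Bub1, chr2:127831810-127832109 (minus strand): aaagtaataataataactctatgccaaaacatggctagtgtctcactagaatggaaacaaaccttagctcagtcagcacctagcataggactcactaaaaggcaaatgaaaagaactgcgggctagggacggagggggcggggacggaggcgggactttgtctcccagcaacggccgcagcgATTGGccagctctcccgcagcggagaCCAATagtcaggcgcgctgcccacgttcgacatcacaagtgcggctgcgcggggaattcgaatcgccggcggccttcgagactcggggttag
All 4 promoters of the genes that were lower hold at least 1 CHR match and at least 1 CCAAT box. The Bub1 window holds 2 CCAAT boxes and neither TTTGAA nor TTTAAA. No other sequence was searched for as a CHR, so the Bub1 window may hold a CHR of another form. In the Ccnb2 window 3 CCAAT boxes lie between a TTTGAA that begins at base -167 and another that begins at base 5, with base 1 at the start.

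A promoter was found for 25 of the 30 genes, 26 promoters in all, since Prc1 has a pair of overlapping ones. Ccna2, Cdc25c, Aurkb, Kif20a and Tpx2 had none in the table used. TTTGAA, which on the opposite strand reads TTCAAA, occurred in 20 of the 26, or 76.9%, against 17.9% of the 32851 mouse promoters of the same length. TTTAAA, which reads the same on both strands, occurred in 34.6%, against 13.2% of all promoters. CCAAT, which on the opposite strand reads ATTGG, occurred in 84.6%, against 37.4% of all promoters, and 76.9% held it within the 100 bases before the start, against 18.9%. Only 1 pair of matches overlapped, a forward and a reverse CCAAT in Ube2c. Across the 26 promoters, TTTGAA matches began at a median of -16.5 bases and CCAAT matches at a median of -69.5 bases from the start.

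Promoters were grouped by the comparison of 24 h with 4 h. TTTGAA or TTTAAA was present in 88.5% of the 26 promoters, against 27.6% of all 32851. Among the genes lower at 24 h, Prc1 supplied its pair of promoters, and Cdc25c and Kif20a had none. TTTGAA or TTTAAA was present in 13 of 13 promoters (12 genes) that were lower at 24 h. The count was 1 of 3 among those higher and 8 of 9 among those that did not pass. CCAAT was present in 12 of the 13, in 3 of 3 and in 6 of the 9. Nek2 and Bub1, the higher genes with neither TTTGAA nor TTTAAA, lost their calls under 21 and 9 of 33 other settings and left-out arrays. The matches are a description of letters in these windows, and with 3 promoters in the higher group no difference between the groups was tested.

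**Figure D1:**
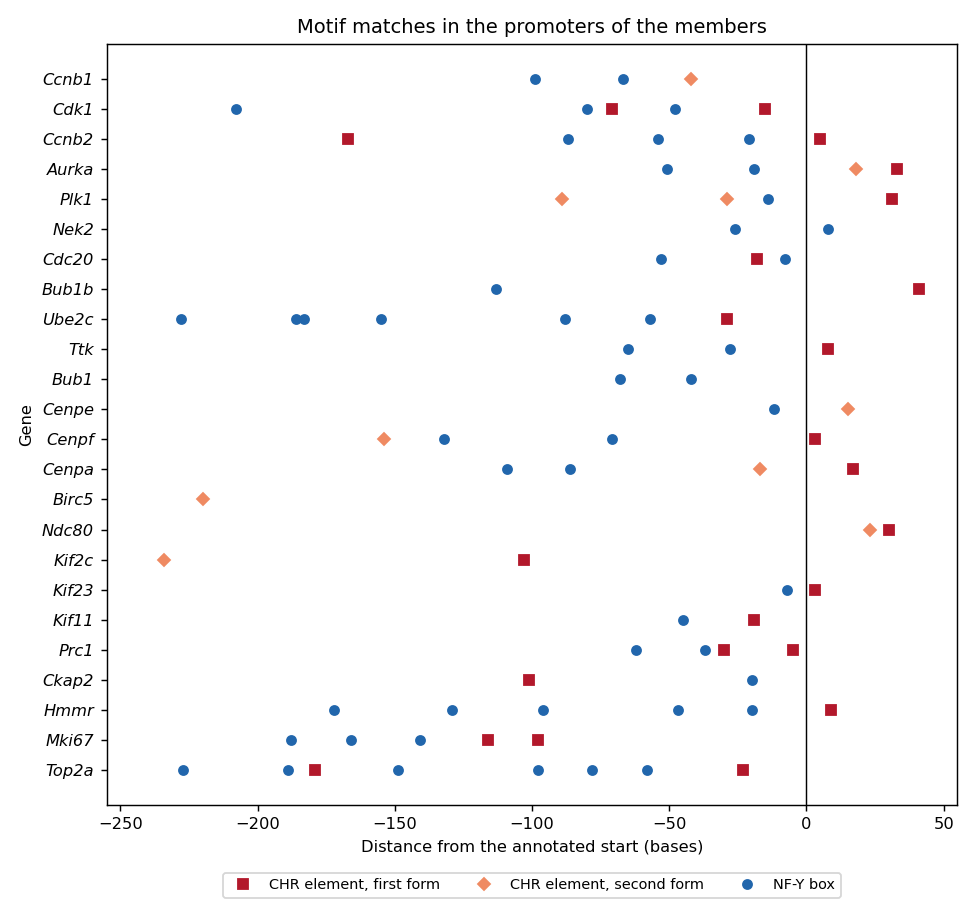
Positions of the motif matches in the promoters of G2/M and mitosis genes, each gene on its own row, with the distance of the first base from the annotated start on the horizontal axis. Squares are TTTGAA and diamonds TTTAAA (the CHR forms searched for), circles are CCAAT (the NF-Y box), and the vertical line is the start. CCAAT boxes lie mostly within 100 bases before the start and TTTGAA close to it, at a median of -16.5 bases.

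All values are log2 signals as deposited, and all changes are differences of group means on the log2 scale with the standard error (SE) of a single limma fit over the 20 arrays. A gene is called higher or lower where the Benjamini-Hochberg adjusted p over the 12944 genes was under 0.05. Where the arrays of groups are said not to overlap, that only describes the values. The share of all genes separated in this way was not counted. The 95% intervals given are of single genes and are not adjusted, so one can leave out 0 where the adjusted p does not pass. The median change of all genes tested lay within 0.02 of 0 in every comparison. Array medians lay between 5.16 and 5.32, and precision is limited by how many arrays each group has. The lowest of all values of the 29 genes was 6.68 (Kif23 on a 24 h array), above the 95th percentile of the nonspecific control probe sets, 5.08. The arrays' interquartile ranges were 2.91 to 3.24 at 24 h and 2.77 to 3.01 at 4 h. The log2 signal of the actin control was 0.50 to 0.56 higher at its 3′ than at its 5′ end at 24 h, and 0.44 to 0.69 at 4 h. These arrays measure the whole dish, so fewer cells in mitosis and less RNA per cell cannot be told apart. Of 10 fibroblast markers 7 lay above 5.08 on average, led by Vim and S100a4, while Col1a2, Lum and Thy1 did not. Their summed linear signal was 18025 to 18389 at 24 h and 18251 to 18990 at 4 h. Such sums mainly follow the strongest genes of a list, here Vim (mean log2 13.18), S100a4 (12.35) and Fn1 (11.66). In the lists below, Krt19 (9.76) was the strongest epithelial and Lpl (8.02) the strongest adipocyte marker. Of 8 macrophage markers 3 lay above 5.08 (sums 290.0 to 329 at 24 h and 263 to 298 at 4 h), of 8 epithelial markers 5 (993 to 1062 and 982 to 1063), of 7 endothelial markers 1 (177 to 191 and 196 to 220), of 5 adipocyte markers 2 (265 to 308 and 383 to 421) and of 8 muscle markers 7 (594 to 631 and 535 to 567). The part of these cell types in the changes below was not tested. The probe set of Prkaa1, which encodes AMPKα1, read 8.27, 8.36 and 8.16 at 24 h and 8.23, 8.21 and 8.11 at 0 h. That of Prkaa2, which encodes AMPKα2, read 5.70, 5.84 and 5.76 at 24 h and 5.59, 5.54 and 5.76 at 0 h. The labels do not say whether either probe set lies within the deleted part, so they do not check the knockout.

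**Figure D2:**
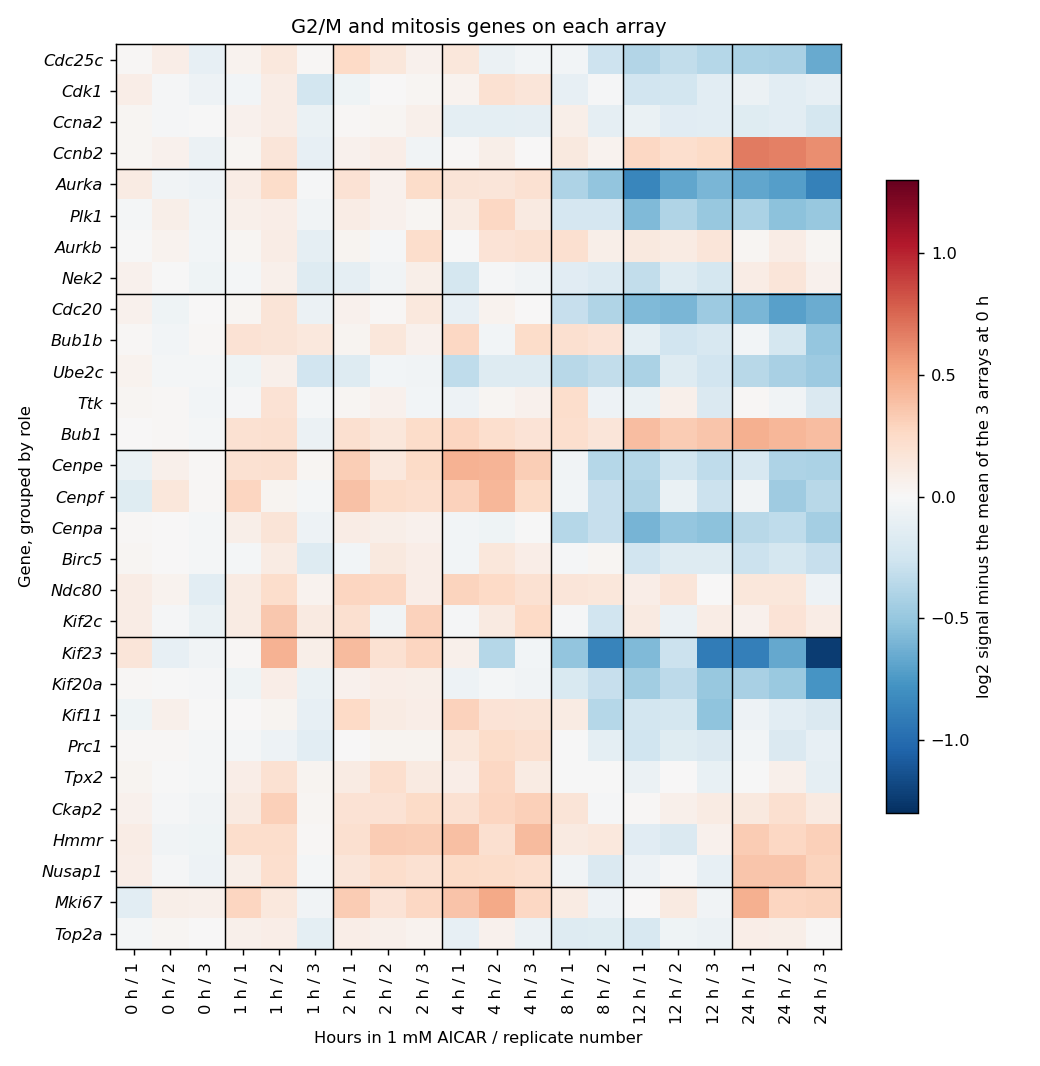
Log2 signal of the 29 genes on each of the 20 arrays, minus the gene's mean over the 3 arrays at 0 h, with blue for lower and red for higher. Columns run from 0 h to 24 h in 1 mM AICAR and rows are grouped by role. Rows such as Aurka, Plk1, Cdc20 and Kif23 turn blue from 8 h on, whereas Ccnb2 and Bub1 are reddest at 24 h, and Mki67, Hmmr and Nusap1 are red at 4 h and again at 24 h.

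Over the 7 times, 22 of the 29 genes changed by limma's moderated F test and 7 did not pass it (Aurkb, Ttk, Ndc80, Kif2c, Tpx2, Ckap2 and Top2a). Of all genes tested, 48.4% passed. Ccna2 passed narrowly, with an adjusted p of 0.0498. The time course had an early and a late phase. By 4 h 7 of the 29 genes were higher than at 0 h and 0 lower, beside 5.18% and 6.9% of all genes. Each of these 7 calls was lost under at least 1 other setting or left-out array. From 8 h on the called genes were mostly lower than at 0 h. At 24 h 12 were lower (41.4%, beside 14.6% of all genes) and 5 higher (17.2%, beside 25.8%). The count of the F test was between 19 and 25 when any single array was left out.

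Between 4 h and 24 h most called genes fell. At 24 h 14 of the 29 genes were lower than at 4 h and 3 were higher, and 12 did not pass. Of all 12944 genes, 13.3% were lower and 26.9% higher. The falls of these genes were thus more frequent, and the rises less frequent, than in the array as a whole. This difference in share was not tested, and the genes were chosen with earlier results of these data known. The median change of the 29 genes was -0.19, beside -0.01 for all genes, and 24 of the 29 lay below 0. These arrays at 4 h and 24 h share no control, unlike the comparisons with 0 h further down, which all use the same 3 arrays at 0 h.

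**Figure D3:**
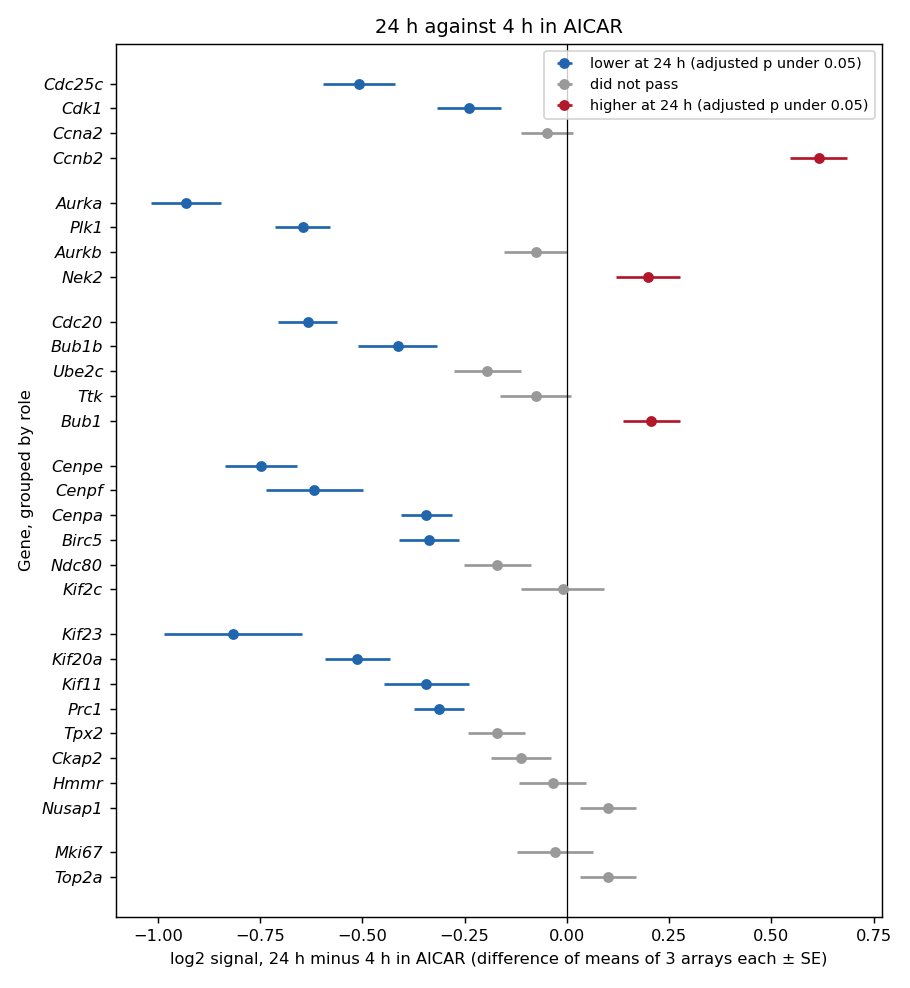
Change in log2 signal at 24 h minus 4 h in AICAR for the 29 genes, as the difference of the means of 3 arrays each with its SE, grouped by role. Blue genes were lower and red genes higher at 24 h at an adjusted p under 0.05, and grey genes did not pass. Among the probe sets used, Aurka has the largest fall (-0.93) and Ccnb2 the largest rise (0.62).

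Among the cyclins and the genes that control CDK1, changes went both ways. Ccnb2, which encodes cyclin B2, an activating partner of CDK1, had log2 signals of 10.79, 10.77 and 10.71 at 24 h, against 10.13, 10.19 and 10.11 at 4 h. Every 24 h array was above every 4 h array, and the rise was 0.62 ± 0.07 (1.53-fold, adjusted p = 1.32e-06). Cdc25c, the phosphatase that releases CDK1 from inhibition, read 7.0, 6.99 and 6.76 at 24 h, against 7.56, 7.34 and 7.38 at 4 h. Its fall of 0.51 ± 0.09 (adjusted p = 0.000128) left no overlap between the groups. Cdk1 itself, the mitotic kinase, read 11.60, 11.54 and 11.57 at 24 h, against 11.72, 11.87 and 11.84 at 4 h, a smaller fall of 0.24 ± 0.08 (adjusted p = 0.02). The call for Cdk1 was lost without 4 h replicate 2, 4 h replicate 3 or 24 h replicate 2, with changes of -0.21, -0.22 and -0.23 and adjusted p of 0.076, 0.0626 and 0.0639. It was also lost with median centring, at an adjusted p under 0.01, and without both 2 h replicate 3 and 4 h replicate 2. Ccna2, which encodes cyclin A2, did not pass (-0.05, 95% interval -0.18 to 0.09). Its second probe set fell by 0.20 ± 0.06 (adjusted p = 0.0199 over all probe sets).

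The mitotic kinases were led by the falls of Aurka and Plk1. Aurka, the centrosomal kinase Aurora A, had 9.07, 9.02 and 8.86 at 24 h, against 9.91, 9.90 and 9.94 at 4 h. The groups lay far apart relative to their spread, and the fall was 0.93 ± 0.09 (1.91-fold, adjusted p = 1.29e-07). Plk1, the Polo-like kinase of mitotic entry and spindle assembly, had 8.73, 8.62 and 8.65 at 24 h, against 9.26, 9.42 and 9.27 at 4 h. It fell by 0.65 ± 0.07 (1.56-fold, adjusted p = 5.9e-07), again with no overlap. Aurkb, the kinase of the chromosomal passenger complex, read 9.52, 9.59 and 9.52 at 24 h, against 9.49, 9.68 and 9.69 at 4 h. These overlap, and the change of -0.08 had a 95% interval of -0.24 to 0.09. Nek2, a kinase that splits the centrosomes, was higher by 0.20 ± 0.08 at an adjusted p of 0.0495. Of the 17 calls of this comparison it was the one lost under most settings: leaving out any single array other than 1 h replicates 2 and 3, 2 h replicate 3 and 4 h replicate 2 ended it, with changes of 0.13 to 0.23 and adjusted p of 0.0502 to 0.207. The mean of its probe sets gave 0.04 (adjusted p = 0.621).

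Among the checkpoint and APC/C genes, Cdc20 fell most. Cdc20, the APC/C activator on which the checkpoint acts, had 10.17, 10.06 and 10.12 at 24 h, against 10.66, 10.82 and 10.78 at 4 h. The fall of 0.63 ± 0.07 (1.55-fold, adjusted p = 1.55e-06) separated every array of the 2 groups. Bub1b, which encodes the checkpoint protein BUBR1, read 9.89, 9.69 and 9.42 at 24 h, against 10.19, 9.88 and 10.16 at 4 h. It fell by 0.41 ± 0.10 (adjusted p = 0.00191), although one 24 h array lay just above the lowest 4 h array. Bub1, the kinase that recruits checkpoint proteins to kinetochores, moved the other way, with 11.20, 11.17 and 11.14 at 24 h, against 11.02, 10.96 and 10.92 at 4 h. The rise was 0.21 ± 0.07 (adjusted p = 0.0244). The Bub1 call was lost without 4 h replicate 2 (0.20, adjusted p = 0.0553), 4 h replicate 3 (0.18, 0.0907), 24 h replicate 1 (0.19, 0.0776) or 24 h replicate 2 (0.20, 0.0606). Ube2c, the E2 enzyme of the APC/C, did not pass (-0.19, 95% interval -0.37 to -0.02), nor did the checkpoint kinase Ttk (-0.08, -0.26 to 0.11).

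Of the 6 kinetochore and centromere genes 4 fell and 0 rose. Cenpe, the kinesin that moves chromosomes to the spindle equator, had 9.77, 9.57 and 9.56 at 24 h, against 10.42, 10.42 and 10.30 at 4 h. It fell by 0.75 ± 0.09 (1.68-fold, adjusted p = 2.41e-06). Cenpf, a large kinetochore protein, had 9.46, 9.04 and 9.14 at 24 h, against 9.80, 9.94 and 9.75 at 4 h, and fell by 0.62 ± 0.12 (adjusted p = 0.000375). No 24 h array of either gene reached a 4 h array. Cenpa, the histone H3 variant that marks centromeres, fell by 0.34 ± 0.06 (adjusted p = 0.000243), and its arrays at 24 h (10.61, 10.64 and 10.53) did not overlap those at 4 h (10.93, 10.91 and 10.96). Birc5, which encodes survivin of the chromosomal passenger complex, fell by 0.34 ± 0.07 (adjusted p = 0.00112). Ndc80, the microtubule anchor of the kinetochore, changed by -0.17 (95% interval -0.34 to 0.00) and Kif2c, a microtubule-depolymerizing kinesin, by -0.01 (-0.22 to 0.20), and neither passed.

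Of the 8 spindle motors and microtubule proteins, the 4 called lower are the kinesins Kif23, Kif20a and Kif11 and the microtubule bundler Prc1, and the 4 others did not pass. Kif23, the kinesin of the central spindle, had the widest spread, with 7.02, 7.25 and 6.68 at 24 h, against 7.98, 7.54 and 7.87 at 4 h. Its fall was 0.82 ± 0.17 (1.76-fold, adjusted p = 0.00071), with no overlap. Kif20a, a kinesin needed for cytokinesis, had 9.95, 9.89 and 9.60 at 24 h, against 10.30, 10.35 and 10.32 at 4 h, a fall of 0.51 ± 0.08. Prc1, which bundles the midzone microtubules, fell by 0.31 ± 0.06. Kif11, the motor that separates the spindle poles, fell by 0.34 ± 0.10 (adjusted p = 0.0121), a call lost without 4 h replicate 1 (-0.30, adjusted p = 0.0502), with median centring (-0.28, 0.0915) and when its probe sets were averaged (-0.22, 0.377). The changes of the spindle-assembly factor Tpx2 (-0.17), the microtubule-associated Ckap2 (-0.11), the hyaluronan-mediated motility receptor Hmmr (-0.04) and the spindle protein Nusap1 (0.10) did not pass. The other probe set of Tpx2 fell and passed over all probe sets, as described below. The chromosome-structure genes did not pass either. Mki67, which encodes the proliferation antigen Ki-67, changed by -0.03 (95% interval -0.22 to 0.16), and Top2a, the topoisomerase that untangles sister chromatids, by 0.10 (-0.04 to 0.24).

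Of the 17 genes called at 24 h against 4 h, 12 stayed called under all 33 other settings and left-out arrays. The 5 others are Cdk1, Nek2, Bub1, Cenpe and Kif11. Cenpe lost its call only with the mean of all its probe sets.

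The early phase was a modest rise. At 1 h and at 2 h none of the 29 genes was called in either direction by limma. At an unadjusted p under 0.05 there were 0 of the 29 at 1 h, beside 722 of all 12944 genes. At 2 h there were 9, beside 1329 of all genes. Of all genes 0.00773% were called higher and 0.471% lower at 1 h, and 0.471% higher and 0.997% lower at 2 h. By 4 h 7 of the 29 were higher than at 0 h and 0 lower, where 5.18% of all genes were higher and 6.9% lower. Cenpe rose most, with 10.42, 10.42 and 10.30 at 4 h, against 9.89, 10.04 and 9.99 at 0 h (0.41 ± 0.09, adjusted p = 0.00546). Mki67 had 10.65, 10.77 and 10.55 at 4 h, against 10.15, 10.35 and 10.34 at 0 h (0.38 ± 0.09, adjusted p = 0.0115). Hmmr had 10.41, 10.23 and 10.44 at 4 h, against 10.12, 9.98 and 9.97 at 0 h (0.34 ± 0.08, adjusted p = 0.0107). In these 3 genes no array of one group reached the other. Ckap2 (0.26), Nusap1 (0.24), Bub1 (0.23) and Prc1 (0.20) rose less.

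Apart from that of Cenpe, these early calls were each lost without at least 1 single array. Mki67 lost its call without 0 h replicate 1 (0.31, adjusted p = 0.0752) or 4 h replicate 2 (0.32, 0.0562), and Hmmr without 0 h replicate 2 (0.32, 0.0512) or 4 h replicate 3 (0.30, 0.0562). Ckap2 lost it without 0 h replicates 2 or 3 or 4 h replicates 2 or 3 (0.24 to 0.26, adjusted p 0.0652 to 0.0919), and Nusap1 without 0 h replicates 2 or 3 or any 4 h array (0.20 to 0.25, 0.0688 to 0.105). Prc1 lost it without any 0 h array, 2 h replicates 1 or 2, or 4 h replicates 2 or 3 (0.18 to 0.21, 0.0516 to 0.128). Bub1 lost it without any 0 h or 4 h array, 2 h replicates 1 or 2, either 8 h array or 24 h replicate 2 (0.20 to 0.25, 0.0502 to 0.128). The 2 arrays with the highest medians are 2 h replicate 3 and 4 h replicate 2. Without both of them, a setting chosen after seeing the data, 2 genes were higher at 4 h in place of 7.

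**Figure D4:**
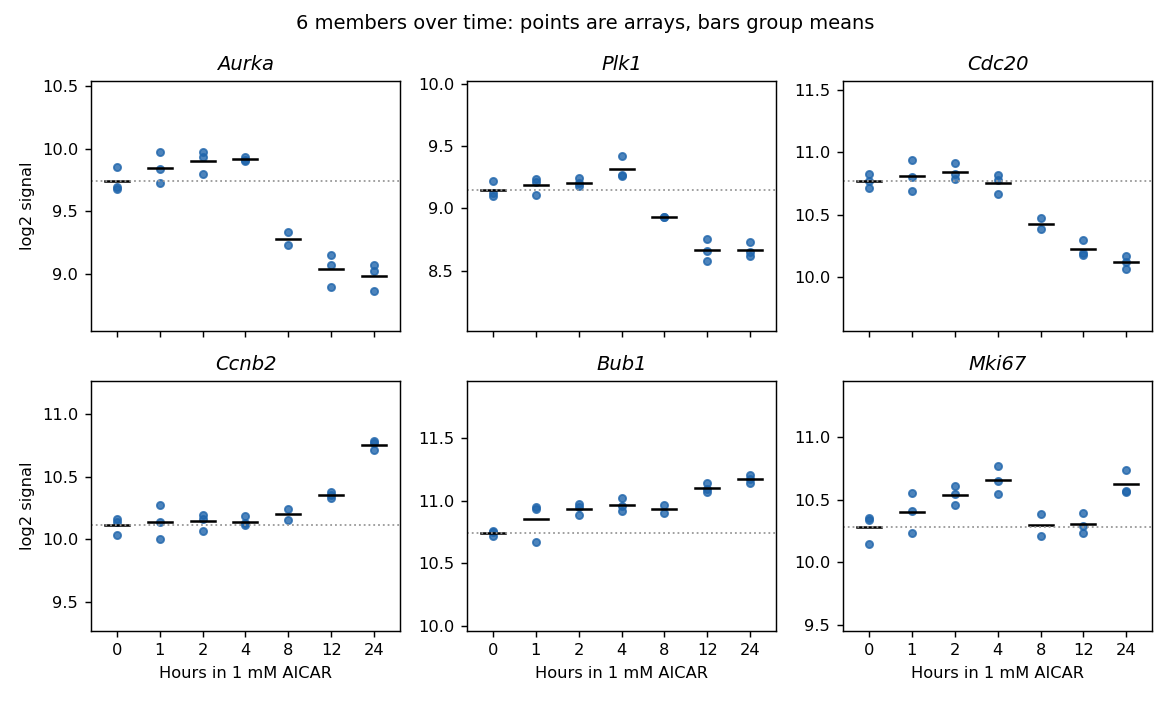
Log2 signal of 6 genes over the hours in 1 mM AICAR, with a point for each array, a bar for the group mean and a dotted line at the 0 h mean; each panel spans the same range of log2 units. Aurka, Plk1 and Cdc20 are not called different from 0 h up to 4 h and lie below it on average at 8, 12 and 24 h, Ccnb2 is highest at 24 h, and Mki67 is high at 4 h and 24 h.

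From 8 h the direction turned. At 8 h, with 2 arrays, 5 of the 29 genes were lower than at 0 h and 0 higher, where 2.84% of all genes were lower and 7.49% higher. Aurka had 9.34 and 9.23 at 8 h, against 9.85, 9.69 and 9.68 at 0 h (-0.46 ± 0.10, adjusted p = 0.00492). Kif23 (-0.68 ± 0.19), Cdc20 (-0.34), Ube2c (-0.34) and Cenpa (-0.33) were the others. Each of the 5 calls was lost without 1 of the 8 h arrays, leaving a lone array that is assumed to vary like the other groups. Aurka lost it without 8 h replicate 2 (-0.41, adjusted p = 0.0646), Cenpa without 8 h replicate 1 (-0.30, 0.107), and Cdc20 (-0.39 and -0.30, adjusted p = 0.0654 and 0.11), Kif23 (-0.86 and -0.51, 0.0715 and 0.238) and Ube2c (-0.32 and -0.36, 0.195 and 0.0872) without 8 h replicate 1 and 2 in turn. Kif23 and Ube2c also lost it without 0 h replicate 1 (-0.60, 0.0889, and -0.32, 0.07) or 3 (-0.71, 0.0584, and -0.35, 0.051). With the mean of their probe sets, Kif23 (-0.32, adjusted p = 0.0622) and Cenpa (-0.16, 0.0755) did not pass.

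At 12 h 12 of the 29 genes were lower than at 0 h and 2 were higher, where 8.88% of all genes were lower and 14.8% higher. Aurka read 8.89, 9.07 and 9.15 at 12 h (-0.71 against 0 h, adjusted p = 1.71e-05), Cdc20 10.20, 10.17 and 10.30 (-0.55, 3.48e-05) and Cenpa 10.37, 10.47 and 10.44 (-0.54, 1.24e-05). Plk1 (-0.48), Kif20a (-0.43) and Cdc25c (-0.36) were lower too, and the calls of these 6 genes held under every setting and left-out array tried. Kif23 (-0.59), Kif11 (-0.33), Cenpe (-0.31), Ube2c (-0.28), Nek2 (-0.24) and Prc1 (-0.20) passed in the main comparison. Each of the 6 lost its call without at least 1 single array: Kif23 without 0 h replicate 1 or 12 h replicate 3 (-0.51 and -0.43), Kif11 without 0 h replicates 2 or 3 or 12 h replicate 3 (-0.24 to -0.33), Cenpe without 0 h replicate 2 or 12 h replicate 1 (-0.28 each), Ube2c without 0 h replicate 1 or 12 h replicate 1 (-0.25 and -0.21), Nek2 without 0 h replicates 1 or 2 or 12 h replicates 1 or 3 (-0.20 to -0.24), and Prc1 without 0 h replicates 1 or 2 or 12 h replicate 1 (-0.17 to -0.20). Their adjusted p were then 0.0565 to 0.142. Bub1 (0.36 ± 0.07) and Ccnb2 (0.24 ± 0.07) were already higher, and Ccnb2 lost its call without 0 h replicate 3 (0.21, adjusted p = 0.0742) or 12 h replicate 1 (0.23, 0.0548). With the mean of their probe sets Bub1 was at 0.10 (adjusted p = 0.36) and Cenpe at -0.50 (adjusted p = 0.613), and neither passed. With the replicate number as a block, Cdk1 (-0.21, adjusted p = 0.0483) and Birc5 (-0.19, adjusted p = 0.0299) were called lower as well, 14 genes in all.

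At 24 h 12 of the 29 genes were lower than at 0 h and 5 were higher, where 14.6% of all genes were lower and 25.8% higher. The share of these genes called higher, 17.2%, was below that of all genes, while the share called lower, 41.4%, was above it, and neither difference was tested. Kif23 (-0.93 ± 0.17, adjusted p = 0.000201), Aurka (-0.76 ± 0.09, 1.26e-06) and Cdc20 (-0.65 ± 0.07, 1.05e-06) fell most. Kif20a (-0.56), Cdc25c (-0.50), Plk1 (-0.48), Ube2c (-0.42), Cenpa (-0.38), Cenpe (-0.34) and Birc5 (-0.27) fell by less. Bub1b (-0.26, adjusted p = 0.0409) and Ccna2 (-0.17, 0.0413) passed narrowly. Bub1b lost its call without any 0 h array or without 24 h replicates 2 or 3, the last of which gave -0.13 (adjusted p = 0.258), and the arrays of the 2 groups overlapped. Ccna2 lost it without any 0 h or 24 h array, 2 h replicates 1 or 2 or 4 h replicate 3 (-0.14 to -0.19, adjusted p 0.0506 to 0.133). When its probe sets were averaged, Cenpe no longer passed (-1.27, adjusted p = 0.0827). With the replicate number as a block, Cenpf (-0.29, adjusted p = 0.0494) was called lower as well, 13 genes in all.

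The genes that stood higher at 24 h than at 0 h belong to different roles. Ccnb2 had 10.79, 10.77 and 10.71 at 24 h, against 10.14, 10.16 and 10.03 at 0 h, a rise of 0.65 ± 0.07 (1.57-fold, adjusted p = 7.07e-07). Bub1 had 11.20, 11.17 and 11.14 at 24 h, against 10.75, 10.76 and 10.72 at 0 h, a rise of 0.43 ± 0.07. In both genes every 24 h array exceeded every 0 h array. Mki67 (0.35 ± 0.09), Nusap1 (0.34 ± 0.07) and Hmmr (0.30 ± 0.08) were the other 3.

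Over the last interval, 12 h to 24 h, every call was a rise. At 24 h 5 of the 29 genes were higher than at 12 h and 0 were lower, where 12.6% of all genes were higher and 7.3% lower. At an unadjusted p under 0.05 there were 7 of the 29 in all, beside 3877 of all 12944 genes, so this count does not stand out. Nusap1 had 10.35, 10.35 and 10.28 at 24 h, against 9.92, 9.98 and 9.88 at 12 h (0.40 ± 0.07, adjusted p = 0.000439). Hmmr had 10.36, 10.29 and 10.33 at 24 h, against 9.87, 9.84 and 10.08 at 12 h (0.39 ± 0.08). Ccnb2 (0.40), Nek2 (0.34) and Mki67 (0.32) also rose. Mki67 lost its call without 12 h replicate 1 (0.31, adjusted p = 0.052), 12 h replicate 3 (0.28, 0.0767) or 24 h replicate 1 (0.26, 0.0952), and Nek2 when its probe sets were averaged (0.15, 0.111). With the replicate number as a block, Cenpa (0.17, adjusted p = 0.0421) was called higher as well, 6 genes in all. Aurka (-0.05, 95% interval -0.23 to 0.13) and Plk1 (0.00, -0.14 to 0.15) did not pass.

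**Figure D5:**
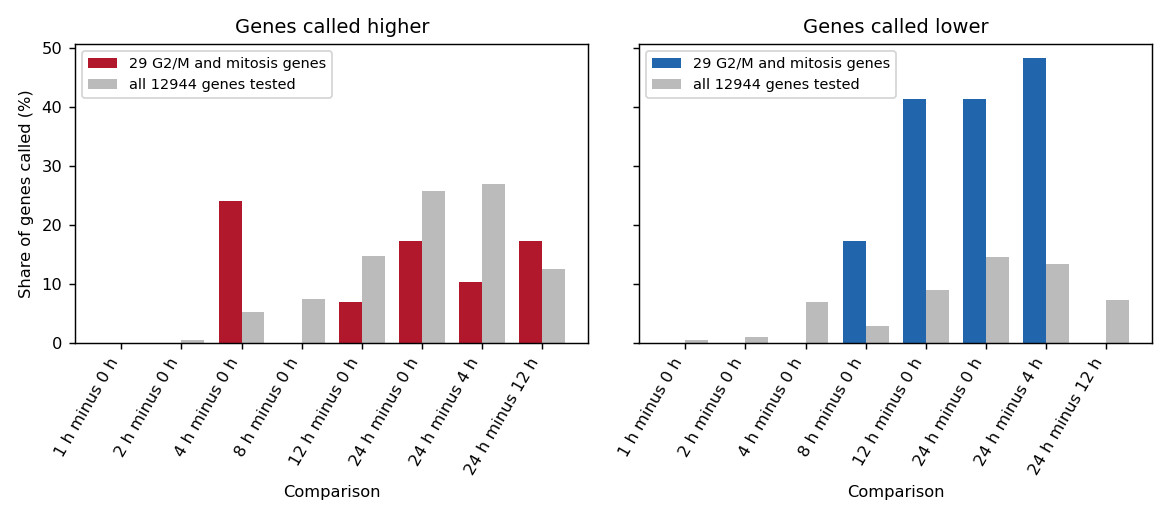
Share of the 29 G2/M and mitosis genes (coloured bars) and of all 12944 genes tested (grey bars) called higher (left) and lower (right) in each comparison, in percent. Of the 29 genes 48.3% were lower at 24 h minus 4 h, against 13.3% of all genes, and 24.1% were higher at 4 h minus 0 h, against 5.18%.

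Several genes have more than 1 probe set. The 29 genes have 53 in all: 13 genes have 1 and 16 have several. Of the 24 probe sets not used above, 9 lay on average no higher than the nonspecific level, and 15, of 12 genes, lay above it. At 24 h against 4 h, 12 of the 15 changed in the same sign as the one used and 3 in the opposite sign. Tpx2 differed most. Its other probe set read 8.61, 8.40 and 8.28 at 24 h, against 9.39, 9.45 and 9.39 at 4 h, a fall of 0.98 ± 0.10 that passed over all probe sets, where the one used changed by -0.17. Cenpe's other probe set ranged from 5.54 to 9.77 over the arrays. It read 7.67, 5.91 and 5.54 at 24 h, against 9.71, 6.34 and 6.94 at 4 h, and with an SE of 1.10 its change of -1.29 did not pass. With the mean of all its probe sets the change of Cenpe at 24 h against 4 h was -1.02 (adjusted p = 0.163), and at 4 h against 0 h it was -0.26 in place of 0.41 (adjusted p = 0.835). Bub1's other probe set lay at 4.68, under the nonspecific level, and the mean of both gave 0.00 at 24 h against 4 h (adjusted p = 0.989) and 0.14 against 0 h (adjusted p = 0.136). The other probe sets of Bub1b (-0.41, adjusted p = 0.0020) and Prc1 (-0.29, adjusted p = 0.0020) fell as well.

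Other genes of the pathway were counted in lists at 24 h against 4 h, where 26.9% of all genes were higher and 13.3% lower. Shares near these say nothing particular of a list, and no list was tested against all genes. Of 20 transcription regulators tested (of 22 listed) 6 were higher (30%) and 5 lower (25%), with a median of 0.12. Foxm1, the activator of the late cell cycle genes, read 6.98, 7.03 and 6.81 at 24 h, against 7.58, 7.91 and 7.55 at 4 h, and fell by 0.73 ± 0.10 (adjusted p = 1.21e-05), although the mean of its probe sets gave -0.12 (adjusted p = 0.103). Mybl2, which encodes B-MYB, changed by 0.26 (95% interval 0.03 to 0.49) and did not pass. Rbl1 and Rbl2, repressor genes of the retinoblastoma family, rose: Rbl1 had 10.23, 10.16 and 10.06 at 24 h, against 9.12, 9.42 and 9.34 at 4 h (0.86 ± 0.09, adjusted p = 5.42e-07), and Rbl2 rose by 1.08 ± 0.23. Tfdp2, a dimerization partner of E2F factors, rose by 0.65.

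Of 15 genes that brake or release CDK1 (of 16 listed) 6 were higher (40%) and 3 lower (20%). Fbxo5, which encodes the APC/C inhibitor EMI1, had 8.52, 8.38 and 8.06 at 24 h, against 10.04, 9.37 and 9.51 at 4 h, a fall of 1.32 ± 0.15 (2.5-fold) with no overlap. Wee1, the kinase that inhibits CDK1, had 8.56, 8.48 and 8.48 at 24 h, against 9.19, 8.91 and 8.98 at 4 h (-0.52 ± 0.09), and at 4 h it was 0.38 ± 0.09 above 0 h. Chek2, a DNA-damage checkpoint kinase, rose by 0.86. Cdkn1a, which encodes the CDK inhibitor p21, rose by 0.42 ± 0.10 (adjusted p = 0.00179; 0.0633 with the mean of its probe sets). Gadd45g, a stress-induced growth-arrest gene, fell by 0.64 ± 0.16 with overlapping arrays.

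Of 16 APC/C subunit and separase-pathway genes (of 18 listed) 7 were higher (43.8%) and 3 lower (18.8%), and of 35 other kinetochore and checkpoint genes (of 39) 12 were higher (34.3%) and 8 lower (22.9%). Cdc27, an APC/C core subunit (0.48), and Pttg1, which encodes securin (0.41), rose, and the subunit gene Anapc15 fell by 0.65. Anapc16 rose by 0.50, but without probe sets of the _x_ and _s_ kinds its change was -0.14 (adjusted p = 0.519). Oip5, a loading factor for CENP-A (1.03 ± 0.11), and Dsn1, a kinetochore core subunit (0.91 ± 0.11), rose. Cenpl, a centromere protein (-0.86 ± 0.14), and Incenp, the scaffold of the passenger complex (-0.67 ± 0.09), fell.

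The 47 other spindle, centrosome and cytokinesis genes (of 50 listed) had the median nearest to that of the 29 genes, -0.18, with 19 lower (40.4%) and 6 higher (12.8%). At 4 h against 0 h 13 of them were higher (27.7%) and 3 lower (6.38%), beside 5.18% and 6.9% of all genes. Kif18a, a kinesin that aligns chromosomes, fell by 0.82 ± 0.10 at 24 h against 4 h and had risen by 0.55 ± 0.10 at 4 h against 0 h. Ccnf, which encodes cyclin F, fell by 0.85, while the augmin subunit gene Haus4 (0.76) and the centriole gene Cenpj (0.71) rose. Of 17 cohesin and condensin genes (of 18) 1 was higher (5.88%) and 2 were lower (11.8%): Smc4 (0.33; 0.14 and an adjusted p of 0.746 with the mean of its probe sets), against Cdca5, which encodes sororin (-0.70), and Ncapd2 (-0.60).

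Of 46 genes of the preceding S phase tested (of 48) 10 were higher and 10 lower (21.7% each), with a median of -0.01. Cdc6, a loader of the replicative helicase, fell by 0.86 ± 0.07 and Rrm2, a ribonucleotide reductase subunit, by 0.85 ± 0.08. The clamp-loader genes Rfc4 (0.65 ± 0.06) and Rfc5 (0.65 ± 0.06) rose.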

How the data were processed

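Total RNA was labelled with biotin as cRNA and hybridised to Affymetrix MG-430 PM array strips, per the labels' protocols. The deposited table holds 45141 probe sets on 20 arrays, and the authors' values are taken as log2 signals, since the highest is 13.5. How the signals were background-corrected, summarized and normalized is not given in the sources used. The deposited log2 values were kept unchanged, because the medians of the arrays spanned 0.159, less than the 0.2 set for renormalizing. The 104 control probe sets were left out.

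The platform annotation lists 29449 probe sets, 28898 of them with a single symbol. Of these, 28689 were matched by gene identifier to the GRCm38.p6 gene table and took its symbol, whether or not it differed. A gene was tested if its mean exceeded 4.81, the 40th percentile of the table, in at least 1 group; 12944 genes passed and 4153 did not. All comparisons came from 1 fit with limma 3.58.1 in R 4.3.3 (lmFit, eBayes, two-sided, 13 residual degrees of freedom, Benjamini-Hochberg over all genes tested). The same fit over the 28707 probe sets other than controls that passed the same cutoff gave the values of the other probe sets. Intervals are 95% intervals of the moderated fit. Arrays of the same replicate number were judged paired where the correlation of their deviations from the group means was above 0.1 for every pair. That held for 12 h against 0 h (0.14 to 0.53), 24 h against 0 h (0.22 to 0.64) and 24 h against 12 h (0.28 to 0.76). It did not hold for the other comparisons, and the labels do not say what a number marks. The main fit did not use this pairing in any comparison. The replicate number as a block was an alternative setting, named where its calls are given. The script was tested on simulated data. Promoters came from RefSeq (GRCm38.p6), and motif matches and figures from Python 3.11.15 with matplotlib 3.10.9.

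The genes described and the gene lists were chosen with earlier results of these data known. The other genes named are, per list, up to 4 past the threshold at 24 h against 4 h with the largest change, and Foxm1, Mybl2, Cdkn1a, Wee1, Prkaa1 and Prkaa2. Alternatives covered normalization, filters, choice of probe sets, array weights, variance model, covariates, threshold, the groups fitted and each array left out.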

Additional observations from a re-analysis of the deposited data

How the results depend on the processing

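The counts of genes lower at 12 h, 24 h and 24 h minus 4 h, and higher at 24 h, stayed within 1.5 times under median centring, quantile normalization, a filter raised to the 60th percentile or dropped, averaging each gene's probe sets, no _x_ or _s_ probe sets, array weights, trended and robust variance, the interquartile range as a covariate, the replicate block and the fit of the compared groups alone; at an adjusted p under 0.01, 6 genes in place of 12 were lower at 12 h. Other counts moved, and the cause was not tested. Genes higher at 4 h minus 0 h, 7 in the report, were 2 with median centring, 4 with the mean of all probe sets, 13 with array weights, 3 with only the groups compared, 1 at an adjusted p under 0.01 and 2 without both 2 h replicate 3 and 4 h replicate 2. Genes lower at 4 h, 0 in the report, were 1 with quantile normalization, 2 with array weights and 1 with trended and robust variance. Genes higher at 2 h, 0 in the report, were 5 with array weights, 1 with trended and robust variance, 2 with the interquartile range covariate and 1 with the replicate block. At 8 h, genes lower, 5 in the report, were 3 with median centring, 3 with the mean of all probe sets and 2 at an adjusted p under 0.01, and 1 was higher with quantile normalization. Genes higher at 12 h, 2 in the report, were 1 with median centring, with the mean of all probe sets and at an adjusted p under 0.01. Genes higher at 24 h minus 4 h, 3 in the report, were 5 with quantile normalization and with array weights, and 1 with the mean of all probe sets, with only the groups compared and at an adjusted p under 0.01. At 24 h minus 12 h 1 gene was lower with the interquartile range covariate. Leaving out 1 array at a time gave 2 to 8 genes higher and 0 to 1 lower at 4 h, 0 to 1 higher and 1 to 6 lower at 8 h, 1 to 2 higher and 8 to 14 lower at 12 h, 5 to 5 higher and 10 to 12 lower at 24 h, 1 to 3 higher and 13 to 16 lower at 24 h minus 4 h, and 4 to 7 higher and 0 lower at 24 h minus 12 h. The mean of all probe sets turned the sign of Cenpe at 4 h minus 0 h (-0.26), Smc4 at 24 h minus 0 h (-0.21) and at 24 h minus 12 h (-0.26), Foxm1 (0.0935) and Cdkn1a (-0.0194) at 24 h minus 12 h, and leaving out _x_ and _s_ probe sets that of Anapc16 at 24 h minus 4 h (-0.14). Of 57 same-numbered pairs of arrays from different groups, 39 had deviations correlated above 0.1 (median 0.32, range -0.46 to 0.79), and 12 of 20 arrays correlated best with one of their own number. Of the comparisons without such a pairing, 24 h minus 4 h had 1 of 3 pairs above 0.1 and 4 h minus 0 h 0 of 3. There the replicate block gave 17 genes lower and 3 higher at 24 h minus 4 h and 8 higher at 4 h. The replicate block ended no call of the 29 genes in any comparison and moved no count by over 1.5 times other than that at 2 h. The F test has no value in a fit of only the groups compared. The probe sets used for the 29 genes lay above 5.08, the 95th percentile of the nonspecific controls, on every array. They were chosen for their high signal, and 9 of the 24 other probe sets were on average not above that level. The part of background signal in the changes was not tested.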
